A study of Vitis vinifera with 12 samples.

Results

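The miR171 family of grapevine was followed on 12 oligonucleotide arrays from 6 tissues. Members were taken as the mature miR171 sequences matched by at least 1 perfect match probe whose complement shares an unbroken, ungapped stretch of 18 or more bases with the mature sequence. This rule found 6 mature sequences, miR171b, miR171c, miR171e, miR171f, miR171g and miR171h, of the 72 mature sequences of all families that the same rule matched. They are read by 20 probes, 18 of them with distinct sequences, among the 1947 probes for miRNA precursors. The sequence called miR171c here is shared by the loci a, c, d and i, so the array cannot tell those loci apart. The paper places miR171g on the strand opposite a GRAS transcription factor gene and likens it to a miR156h prediction it calls probably incorrect. In its leaf small RNA sequencing, no perfectly matching reads were found for miR171b, miR171f, miR171g or miR171h.

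LMW (low molecular weight) RNA of Vitis vinifera cv Corvina was labelled with Cy5 and hybridized with 1 sample per array. The tissues were leaves from plants before flowering, young inflorescences taken 3 weeks before flowering, roots, and berries taken 5 weeks (green), 9 weeks (veraison, the onset of ripening) and 15 weeks (mature) after flowering, with seeds removed. Roots came from in vitro plants and all other tissues from the field, so tissue and growth conditions cannot be told apart for roots. Each tissue had 2 arrays with separately extracted RNA, most labelled as pools, and slides were stripped and used again, so p-values measure the spread between 2 extractions and their hybridizations.

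miR171 is an old plant miRNA family whose best known targets are messenger RNAs of GRAS transcription factors, the HAIRY MERISTEM or SCARECROW-LIKE group. The miRNA pairs almost perfectly with a stretch in the GRAS coding sequence and guides cleavage of the transcript. In Arabidopsis and other plants these GRAS factors keep shoot meristem cells undifferentiated and affect branching, chlorophyll synthesis and flower development. Most family members share one core and differ at 1 or a few bases or in where the mature sequence starts, as the sequences below show. They are printed as DNA, 5′ to 3′, as the complement of the probes, with bases 2 to 8, the seed, in capitals. The miR171c sequence was joined from overlapping probes, since no single probe equals it.
miR171b: tGATTGAGccgcgtcaatatc
miR171c: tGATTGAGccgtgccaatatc
miR171e: tGATTGAGccgcgccaatatc
miR171h: tGGTTGAGccgcgccaatatc
miR171f: tTGAGCCGcgccaatatcact
miR171g: tTGAGCCGaaccaatatcacc

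By seed the members form 3 groups. GATTGAG is shared by miR171b, miR171c and miR171e, TGAGCCG by miR171f and miR171g, and GGTTGAG belongs to miR171h. Counted from 1 at the 5′ end of miR171e, miR171c differs by C12T, miR171b by C14T and miR171h by A3G. miR171f starts 3 bases later and has 0 differences from miR171e, and 0 from miR171h, over the 18 bases in common. miR171g differs from miR171f by C9A, G10A and T21C. Each of the 6 mismatch probes differs from its perfect match probe at 2 inner bases, whereas several members differ from each other at 1, so how far a probe also bound its neighbours in the family was not tested.

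One leading probe was read for each member, the one with the longest match or, among equal matches, the lowest probe number. It equals the mature sequence for 5 members. By the 18-base rule the miR171f leading probe also matches miR171e and miR171h, and both of their leading probes also match miR171f. Signals of these 3 members may thus not be separate. All 9 miR171c probes match over 18 bases, so the number alone set its leading probe. That probe starts 3 bases into the mature sequence, at the same place as the miR171f probe, and the leading probes of miR171c and miR171f are printed here because they differ at only 1 inner base, C9T counted from the start of the miR171f sequence, and at their last base. Capitals mark bases 2 to 8 of the printed stretch.
miR171f leading probe: tTGAGCCGcgccaatatcact
miR171c leading probe: tTGAGCCGtgccaatatcacg

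Signal was low for the family against the background level. Background was set on every array 2 SD above the mean signal of 14 negative and degradation controls. It lay between 666 and 4353 scanner units (median 1421), while the median miRNA probe lay between 3.5 and 232. A control named UBQ was the brightest of the 14 on all 12 arrays. A member was called present in a tissue when both of its arrays exceeded background and the perfect match probe exceeded its mismatch probe by a ratio (PM/MM) of more than 1.2. Of 36 combinations of member and tissue 3 were called present, namely miR171e in young inflorescences and miR171h in young inflorescences and in berries at veraison. The share of all mature probes that met this rule is not given here. The study's own calls were wider, with miR171e and miR171h expressed in every tissue and miR171f in all but mature berries. It marked miR171c in roots, leaves, inflorescences and green berries, miR171g in roots, leaves and inflorescences, and miR171b in roots only. Precursor signal was also marked there, for miR171g in each of its tissues and for miR171e in inflorescences and the later berry stages. When the brightest control was left out of the background level, 12 combinations were called present.

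miR171e was brightest in young inflorescences, where its arrays read 2461 and 5028 against background levels of 1071 and 4353. In leaves it read 383.5 and 241.25, the lowest pair of the 6 tissues after normalization. Both inflorescence arrays thus stood above background and both leaf arrays far below it. Roots read 557 and 679.5, green berries 1305 and 798, berries at veraison 784 and 1721, and mature berries 468 and 659.5. Only 1 of these 8 arrays, the second of green berries, was above its background. The mismatch probe stayed at or below 266.5 on all 12 arrays, with a median PM/MM of 31.3.

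miR171h, which differs from miR171e by A3G within the seed, read 2653 and 6388 in young inflorescences. Berries at veraison followed with 1001 and 2578.5, both above background levels of 914 and 1999. These are the tissues in which miR171h was present. Green berries read 1758.5 and 782, with the second array above background, roots 540 and 853, mature berries 441 and 562, and leaves 534.5 and 345.5. The mismatch probe reached at most 255, with a median PM/MM of 20.6.

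miR171c had another order of tissues. Its leading probe read 9381.5 and 4054.75 in young inflorescences and 3269 and 550.25 in leaves. The first array of each tissue was above background and the second was not, and the second inflorescence array fell just short of a background of 4353. Green berries read 476 and 1400, the latter above background, roots 162.5 and 276.5, berries at veraison 211 and 207.75, and mature berries 194 and 124.75. In mature berries perfect match and mismatch were nearly equal, with PM/MM of 1.03 and 1.40, so little specific signal was seen there. The 2 leaf arrays lay far apart, with a normalized level of 10.78 ± 1.87 on the log2 scale (SD, n = 2).

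miR171f read 2801 and 2325 in young inflorescences, the first above background. It was called present in 0 tissues, and its arrays outside the inflorescences lay between 188.25 (leaves) and 562 (veraison). PM/MM was above 1.2 on 12 arrays. The probe was thus specific by this measure and dim outside the inflorescences.

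miR171b and miR171g were the dimmest members. miR171b was below background on every array and highest in young inflorescences (490 and 156.5) and roots (331 and 294). In leaves it read 29 and 1, and berries lay between 43 and 183. Its PM/MM was above 1.2 on 9 arrays, and in mature berries it was 1.01 and 1.48. miR171g was above background on 1 array, young inflorescences replicate 1, with 1219. Its other arrays read between 74.5 and 535, and PM/MM was above 1.2 on 7 of 12 arrays only, so much of this signal was not specific by the mismatch control. The plot of perfect match, mismatch and background shows these readings side by side.

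**Figure D1:**
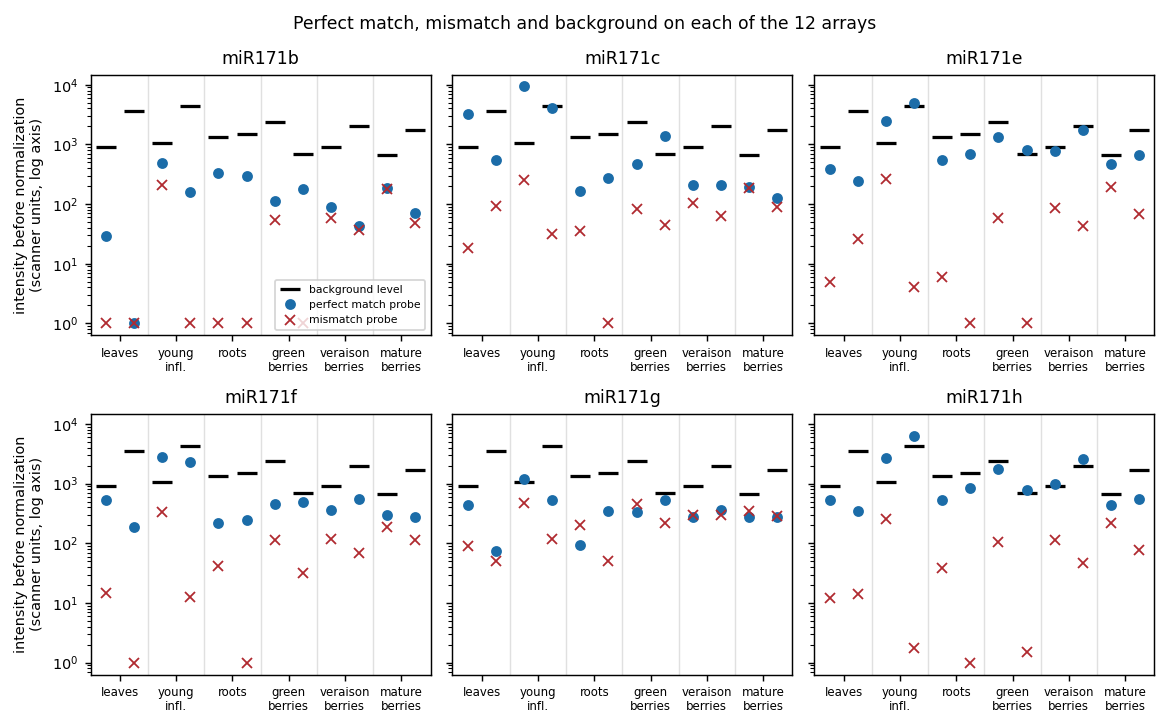
Intensity before normalization (scanner units, log axis, lowest value 1) of the leading perfect match probe (circles) and its mismatch probe (crosses) of each miR171 member on the 12 arrays, 2 per tissue with replicate 1 on the left, with the background level of each array as a bar. Circles above the bar occur on 5 arrays for miR171h, 3 each for miR171c and miR171e, 1 each for miR171f and miR171g, and 0 for miR171b.

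After quantile normalization the levels were compared over tissues with limma, which was fitted on 138 distinct mature miRNA probes of all families and 12 arrays. Of the 6 members 5 passed the moderated F test over the 6 tissues at an adjusted p under 0.05, against 27.5% of all mature probes. The adjusted p was 0.00613 for miR171c, 0.0189 for miR171b, 0.0228 for miR171e, 0.0305 for miR171f, 0.0314 for miR171h and 0.830 for miR171g. All 18 distinct miR171 probes were tested, and 9 passed. The range between the highest and the lowest tissue mean had a median of 2.91 on the log2 scale over the 6 leading probes and 2.03 over all 138. It was 5.73 for the leading probe of miR171c and 1.24 for that of miR171g. The miR171c value depends on the probe, since the 8 other probes with an equal match had ranges from 2.81 to 5.15. Of the 7 distinct miR171c sequences 3 passed over the 6 tissues and 4 did not, with adjusted p from 0.0517 to 0.0908. On the mismatch probes 0 of 138 passed the same limma test over 6 tissues, 6 had an unadjusted p under 0.05, and the lowest adjusted p of the 6 members was 0.917.

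The number of members that passed rested on single arrays. It was 2 without young inflorescences replicate 2 or berries at veraison replicate 1, 3 without mature berries replicate 2, and 1 without roots replicate 1, roots replicate 2 or berries at veraison replicate 2. It was 4 or 5 without any one of the other 6 arrays.

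**Figure D2:**
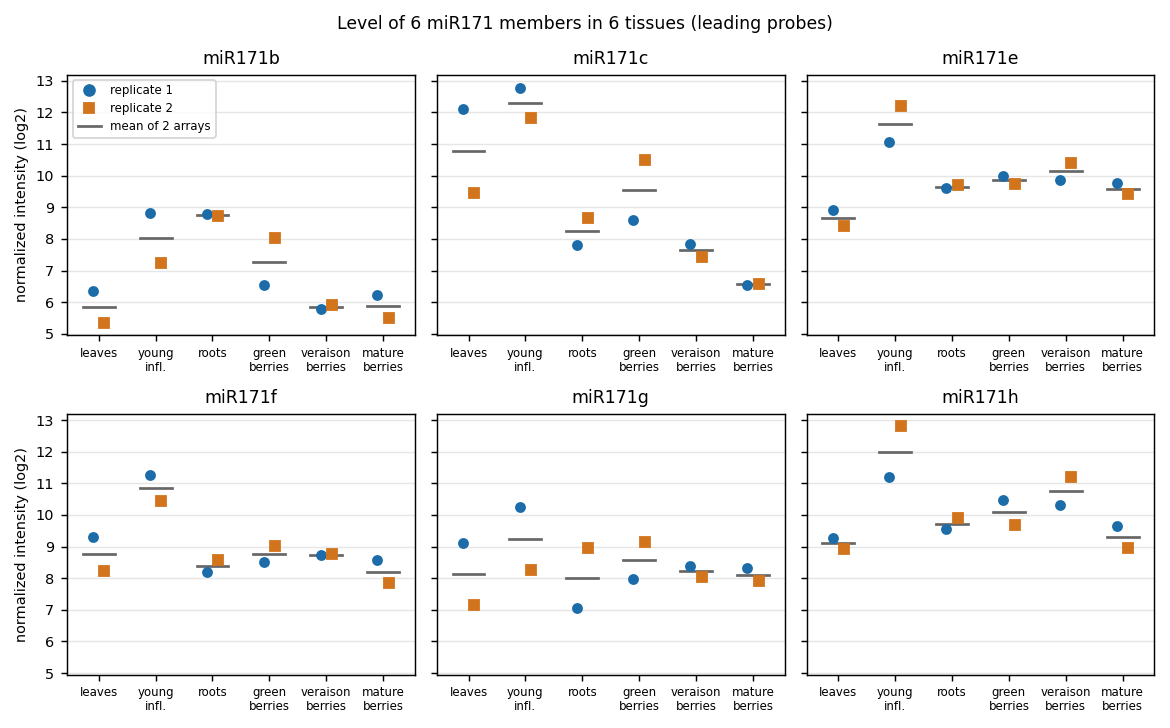
Quantile-normalized intensity (log2) of the leading probe of each miR171 member in 6 tissues, with replicate 1 as circles, replicate 2 as squares and the mean of the 2 arrays as a line. miR171c runs from 12.28 in young inflorescences to 6.56 in mature berries, whereas miR171e and miR171h are lowest in leaves, at 8.66 and 9.10.

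Over the 3 organs, leaves, young inflorescences and roots, 5 of 6 members passed the F test, against 25.4% of the mature probes. The adjusted p was 0.00505 for miR171e, 0.0121 for miR171c and for miR171h, 0.0128 for miR171f, 0.0181 for miR171b and 0.493 for miR171g. Without roots replicate 1 the number that passed was 2. Over all distinct miR171 probes 8 of 18 passed. On the mismatch probes 0 of 138 passed in limma, 11 had an unadjusted p under 0.05, and 0 of these were members.

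Young inflorescences stood above leaves for miR171e and miR171h. The normalized level of miR171e was 11.63 ± 0.80 in inflorescences and 8.66 ± 0.35 in leaves (SD, n = 2), a log2 difference of 2.97 (SE 0.54, adjusted p = 0.0100 in limma). Since both leaf arrays were below background, the fold is given only as a bound, at least 1.49-fold, in which leaves are set at the lowest signal above background on their arrays. miR171h read 11.19 and 12.82 on the normalized inflorescence arrays and 9.29 and 8.92 on the leaf arrays, a log2 difference of 2.90 (SE 0.65, adjusted p = 0.0226, at least 1.93-fold). These 2 members were called, against 4.35% of the mature probes in this direction, and the median difference was 2.14 over the 6 members and 0.38 over all 138. miR171c, high in both organs, had a log2 difference of 1.51 (SE 0.87, adjusted p = 0.371), with overlapping arrays. For miR171f the log2 difference was 2.09 (SE 0.57, adjusted p = 0.0589). For miR171b it was 2.18 (SE 0.69, adjusted p = 0.0894), with all 4 arrays below background. Its level in leaves, 5.84, was close to that at veraison (5.84) and in mature berries (5.86), with overlapping arrays.

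The differences between inflorescences and leaves did not all hold without single arrays. Without young inflorescences replicate 2 the log2 difference was 2.41 for miR171e (adjusted p = 0.0835) and 2.08 for miR171h (adjusted p = 0.126). Without leaves replicate 2 it was 2.72 for miR171h (adjusted p = 0.0814). Neither member passed with scaling to the 75th percentile (2.13 and 1.86), for the ratio of perfect match over mismatch (2.32 and 2.08), in a fit on the 6 organ arrays alone or with array weights.

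Roots were below young inflorescences for 4 members, miR171c, miR171e, miR171f and miR171h, against 16.7% of the mature probes in this direction. The median difference, roots minus inflorescences, was -2.13 over the 6 members and -0.48 over all 138. For miR171c the root level was 8.23 ± 0.63 and the inflorescence level 12.28 ± 0.67 (SD, n = 2), a log2 difference of -4.05 (SE 0.87, adjusted p = 0.00462, at least 3.49-fold lower by the mean of 2 inflorescence arrays of which 1 was above background). For miR171f, again with 1 of 2 inflorescence arrays above background, the log2 difference was -2.48 (SE 0.57, adjusted p = 0.00738, at least 1.30-fold lower). With both inflorescence arrays above background it was -2.28 for miR171h (SE 0.65, adjusted p = 0.0217, at least 2.87-fold lower) and -1.97 for miR171e (SE 0.54, adjusted p = 0.0209, at least 2.22-fold lower). In all 4 the arrays of the 2 tissues did not overlap.

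These root differences were also sensitive to single arrays. Without roots replicate 1 the adjusted p was 0.0538 for miR171c, whose F test then had an adjusted p of 0.102, 0.0876 for miR171f, 0.135 for miR171e and 0.149 for miR171h. Without roots replicate 2 it was 0.0938 for miR171e and 0.0809 for miR171h. Without young inflorescences replicate 1 it was 0.0576 for miR171f, and without young inflorescences replicate 2 it was 0.138 for miR171e and 0.151 for miR171h. The differences kept their sign in all of these fits. Other settings also ended calls. For miR171e, miR171f and miR171h the log2 difference was -1.26, -2.20 and -1.34 with scaling to the 75th percentile, -0.87, -1.82 and -0.96 when the positive control probes set the scale, and -1.31, -2.08 and -1.43 for the ratio of perfect match over mismatch, and none of these passed. In a fit on the 6 organ arrays alone these 3 did not pass either. For miR171c the call was lost with the ratio to the mismatch, at -3.68, and kept in the 3 other settings.

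For miR171b, roots minus leaves was called, as it was for 7.97% of the mature probes in this direction, but the probe was below background on all 12 arrays. The readings, 8.75 ± 0.05 in roots and 5.84 ± 0.72 in leaves (SD, n = 2), gave a log2 difference of 2.91 (SE 0.69, adjusted p = 0.0262), no fold is given, and the second probe of miR171b did not pass over the organs. The call was lost with quantile normalization over all spots and in a fit on the 6 organ arrays alone. The adjusted p was 0.0599 without leaves replicate 2, 0.109 without roots replicate 1, 0.143 without roots replicate 2 and 0.0521 without either array of berries at veraison. For miR171c the difference had the opposite sign, roots minus leaves -2.54 (SE 0.87, adjusted p = 0.0944), and did not pass. The study reported miR171c as lower in roots, and miR171f and miR171h as higher in inflorescences than in both other organs. Here miR171f did not pass between inflorescences and leaves. For miR171e the study found the lowest organ level in roots. Here its mean was higher in roots (9.66) than in leaves (8.66), with neither tissue above background, and did not pass (adjusted p = 0.232 in limma).

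Over the 3 berry stages 0 of 6 members passed, and so did 0% of the mature probes. In limma 0 of 138 passed, with 13 at an unadjusted p under 0.05. A plain one-way test on single probes also gave 0 after adjustment. The study's own one-way test, at p under 0.05 with closely related miRNAs as replicates, gave other calls. There miR171h was highest at veraison and miR171c fell during ripening. miR171c was the 1 member with an unadjusted p under 0.05, and its adjusted p was 0.246. Its level was 9.54 ± 1.34 in green berries, 7.64 ± 0.30 at veraison and 6.56 ± 0.04 in mature berries (SD, n = 2). The arrays of the 3 stages did not overlap, and only 1 of these 6 arrays was above background. In a fit on the 6 berry arrays alone miR171c passed, with an adjusted p of 0.0184. miR171e and miR171f differed little between stages, with means from 9.59 to 10.13 and from 8.21 to 8.77. For miR171h the mean was 10.08 ± 0.56 in green berries, 10.74 ± 0.62 at veraison and 9.30 ± 0.48 in mature berries, with an adjusted p of 0.528.

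In order of normalized level, miR171e ran from young inflorescences through berries at veraison, green berries, roots and mature berries to leaves. The inflorescence arrays lay apart from the next tissue, the leaf arrays did so at the other end, and green berries did not overlap with roots. miR171h had the same order, but each of its neighbouring tissues overlapped in their arrays. miR171c ran from young inflorescences through leaves, green berries, roots and berries at veraison to mature berries, and of its neighbours only veraison and mature berries did not overlap. For miR171f the inflorescences stood apart at the top, and veraison from roots. For miR171g all neighbours overlapped. For miR171b, roots, inflorescences and green berries overlapped in turn and stood apart from mature berries, berries at veraison and leaves.

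Whether 2 members had different tissue profiles was tested on the difference of their log2 levels within each array, which removes what an array shares over all its probes. Because probes bind with different strength, only the change of this difference between tissues is read. All 10395 arrangements of the 12 arrays into 6 tissues of 2 were enumerated in an exact permutation test of the F value for each of 15 pairs of members, and 1e-04 is the smallest p it can give. Of the 15 pairs 5 passed after Benjamini-Hochberg adjustment over the 15, and 6 had an unadjusted p under 0.05.

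The pairs that passed involve miR171c or miR171b. The exact permutation p was 0.000866 for miR171b with miR171c (adjusted 0.00722), 0.000962 for miR171c with miR171g (adjusted 0.00722), 0.00366 for miR171b with miR171f (adjusted 0.0183), 0.00673 for miR171b with miR171g (adjusted 0.0211) and 0.00702 for miR171c with miR171f (adjusted 0.0211). Of these, 3 pairs include the dim miR171b, which was below background on all arrays, and 2 include miR171g. The paper likens miR171g to a prediction it calls probably incorrect.

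miR171c and miR171f are read by probes at the same place that differ inside by 1 base and at the last base, and their difference was lower on both arrays of mature berries than on both arrays of leaves. It was 2.79 and 1.23 on the 2 leaf arrays and 1.49 and 1.37 on the inflorescence arrays. Roots read -0.40 and 0.11, green berries 0.08 and 1.47. At veraison it was -0.87 and -1.35, and in mature berries -2.03 and -1.27. The 4 leaf and inflorescence arrays were thus all above the 4 arrays of the later berry stages, on which both probes were below background. The 20-base probes of the same members, shorter by 1 base at the end, gave 2.19 ± 0.93 in leaves, 1.82 ± 0.65 in inflorescences, -0.99 ± 0.57 at veraison and -0.96 ± 0.31 in mature berries (SD, n = 2), with an exact permutation p of 0.0188.

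miR171c and miR171e have the same seed and a single difference, C12T, as mature sequences. Their leading probes differ further, since that of miR171c starts 3 bases into the mature sequence. The difference between them was 3.19 and 1.04 in leaves and -3.23 and -2.82 in mature berries. In between lay inflorescences with 1.69 and -0.38, green berries with -1.40 and 0.74, roots with -1.81 and -1.04, and veraison with -2.01 and -2.98. The leaf arrays were above all root, veraison and mature berry arrays. The exact permutation p was 0.0298, and 0.0746 after adjustment, so this pair did not pass. miR171c with miR171h was similar in its values and had a p of 0.0717 (adjusted 0.154).

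miR171e and miR171h stayed close. Their difference lay between -0.78 (veraison replicate 2) and 0.45 (mature berries replicate 2) over the 12 arrays, and their Pearson correlation was 0.95 over the 12 arrays, which share their RNA and hybridization. The exact permutation p was 0.121 (adjusted 0.202), which does not show that the profiles are the same. miR171e and miR171f had a difference of -0.11 ± 0.42 in leaves and between 0.77 and 1.39 in the other tissues, with a p of 0.295 (adjusted 0.402). The exact permutation p of miR171f with miR171h was 0.589. The remaining pairs of miR171g, with miR171e, miR171f and miR171h, had p-values from 0.367 to 0.765 by the same exact test. The plot of differences between members shows 4 of the pairs.

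The count of pairs depended on the probe. With the 20-base probe of each member in place of the leading one, 0 of 15 pairs passed, with a smallest adjusted p of 0.0703, and 6 pairs had an unadjusted exact permutation p under 0.05. The unadjusted p was under 0.05 with both sets of probes for 4 pairs. Without any one of the 12 arrays, 2 to 4 pairs passed. It was 2 pairs without leaves replicate 1 or any of the 4 arrays of berries at veraison and mature berries, and 3 without either inflorescence array or roots replicate 1.

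**Figure D3:**
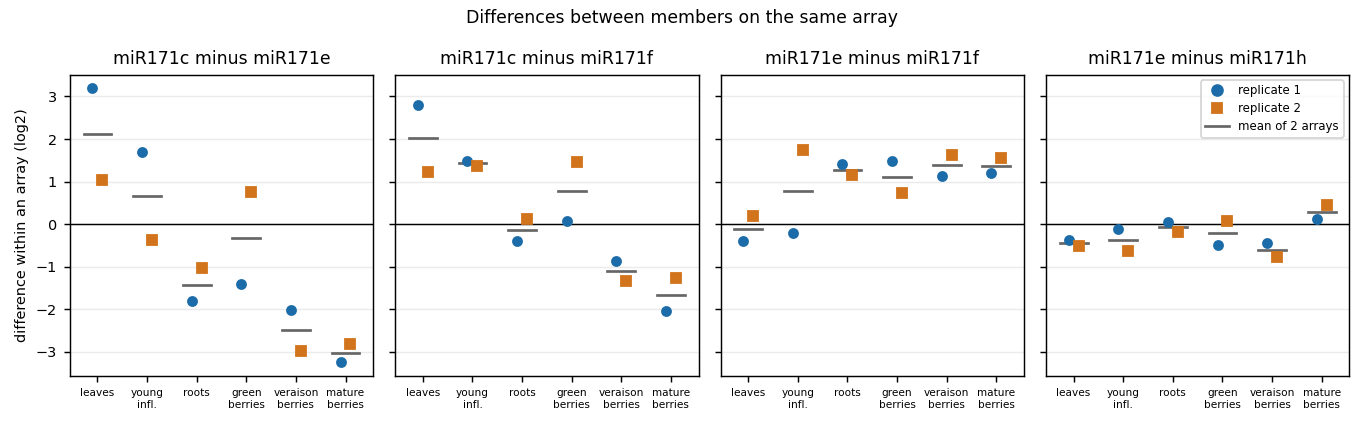
Difference of normalized log2 intensity between 2 members on the same array, by tissue, for 4 pairs of miR171 members (circles replicate 1, squares replicate 2, line the mean of 2 arrays, black line at 0). miR171c minus miR171e goes from a mean of 2.12 in leaves to -3.03 in mature berries, while miR171e minus miR171h stays between -0.78 and 0.45.

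The further probes of a member served as a check within the array. The 20-base probes followed the leading probe closely over the 12 arrays for miR171c (r = 0.98), miR171f (0.96), miR171e (0.96) and miR171h (0.95), less so for miR171g (0.89), and weakly for miR171b (0.48). For miR171b this second probe was highest in roots, at 6.71 ± 0.12 (SD, n = 2), and did not pass over the organs (adjusted p = 0.227 in limma). The second probes of miR171c, miR171e and miR171h passed over the organs, with adjusted p of 0.0479, 0.00578 and 0.00742, and that of miR171f did not (0.0675). Probes with one and the same sequence differed by a median of 0.10 and 0.17 on the log2 scale for the 2 miR171c sequences that were spotted under 2 numbers, and by at most 0.50.

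Forms of miR171c with other bases at the 3′ end were also dim outside leaves, inflorescences and green berries. The 2 other 21-base forms (r = 0.94 and 0.95 with the leading probe) had an adjusted p of 0.105 and 0.0937 over the organs. The 20-base form with the changed last base had r = 0.89 and an adjusted p of 0.317.

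Probes laid along each precursor in steps show how the signal changed with the position of the probe. The array has 5 such probes for each of 8 precursors, at the mature position and shifted by a nominal 5 or 10 bases to either side. By sequence, those shifted 5 bases downstream start 6 bases after the mature probe. In the paper, probes shifted 5 bases upstream lacked, across the array, the drop in signal seen for the other shifts. A bright upstream probe is thus not particular to miR171. The paper proposes a steric effect, which was not tested here. By the mean of 2 arrays, the probe 5 bases upstream was brighter than the mature probe in 6 tissues for miR171e and 5 each for miR171f and miR171h. For each miR171c precursor it was brighter in 3, roots and the later berry stages, where all arrays were below background. For miR171b it was brighter in 4, below background on all arrays, and for miR171g in 0. The following stretches of miR171c, miR171e, miR171f and miR171h are printed to show what these probes share with the mature probe, in capitals.
miR171c, 5 bases upstream: tttgaTTGAGCCGTGCCAAT
miR171e, 5 bases upstream: atctcTGATTGAGCCGCGCC
miR171f, 5 bases upstream: tcagaTTGAGCCGCGCCAAT
miR171h, 5 bases upstream: atgttTGGTTGAGCCGCGCC

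The upstream probe of miR171e read 4047.5 and 9949.5 in young inflorescences, 3889 and 1482 in green berries, 1979 and 3907 at veraison and 1151.5 and 1772 in mature berries. All 8 of these arrays were above background, and leaves (401.5 and 235) and roots (1024.5 and 1446.5) were not. This probe met the rule for presence in 4 tissues, against 1 for the mature probe, and was the brighter of the 2 on 11 of 12 arrays. It shares 15 bases with miR171e. Intensities of different probes are not a ratio of amounts, since binding differs with sequence.

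The upstream probe of miR171h was brighter than its mature probe on 10 arrays and met the rule in 3 tissues, young inflorescences (3444.5 and 8865), green berries (3200.5 and 1298) and berries at veraison (1919.5 and 5034). That of miR171f met it in 2 tissues, young inflorescences (1917.5 and 6253) and berries at veraison (1100.5 and 2604), where the mature probe met it in 0. The miR171f upstream probe shares an unbroken run of 17 bases with miR171e and 15 with miR171f. Its correlation with the miR171f mature probe was 0.59 over the 12 arrays, against 0.89 and 0.83 for the upstream probes of miR171e and miR171h with their own.

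For miR171c the upstream probe holds 18 bases of the mature sequence and followed the leading probe with r = 0.89. It read 1614.5 and 1099 in leaves and 6017 and 2074 in inflorescences. In leaves PM/MM fell to 0.88 on 1 of the arrays, and the mean mismatch signal there was 1257 against a mean perfect match signal of 1357. The rule for presence was met in 0 tissues.

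The probes shifted downstream or by 10 bases were below background on all 12 arrays for all 8 precursors. For miR171e the median over tissues was 7.93% of the mature probe at 5 bases downstream, 2.11% at 10 bases downstream and 5.10% at 10 bases upstream. For miR171g the probe 5 bases downstream was brighter than the mature probe on 9 of 12 arrays, and for 1 of the 3 miR171c precursors that probe exceeded the mature one in 2 tissues, the later berry stages. For the other 2 miR171c precursors it did so in 0 tissues. The probes for the complementary strand were below background on all 12 arrays for all 6 members, with medians between 27.25 and 136.25.

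**Figure D4:**
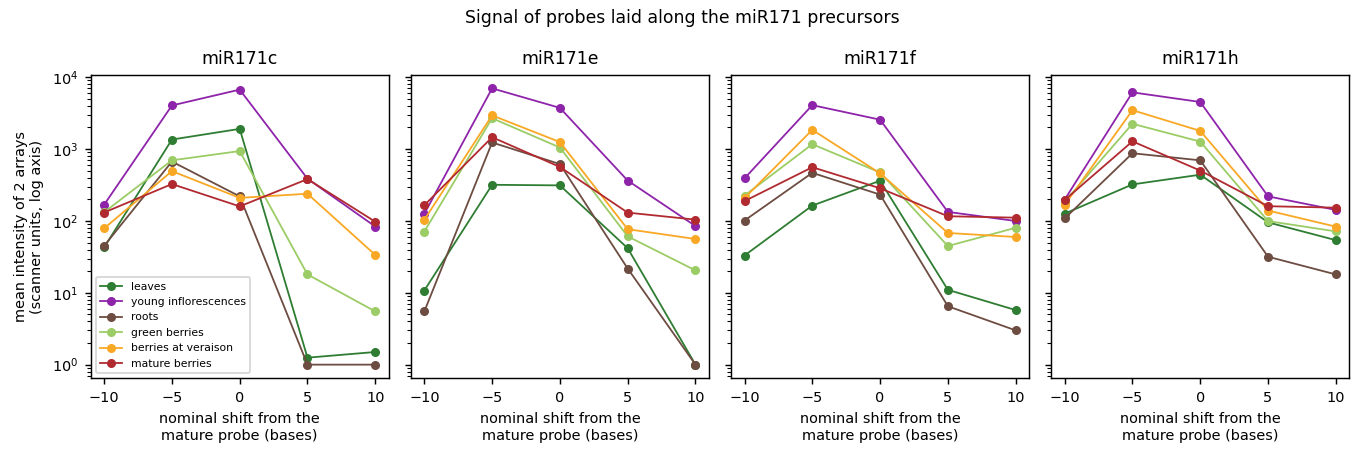
Mean intensity of 2 arrays before normalization (scanner units, log axis, values under 1 drawn at 1) of probes at a nominal shift of 10 or 5 bases upstream, 0, and 5 or 10 bases downstream of the mature probe, for 4 miR171 precursors and 6 tissues. The signal is high at the mature position and 5 bases upstream and lower on either side, except for miR171c in berries at veraison and mature berries, and for miR171e the upstream probe reaches 6998.5 in young inflorescences against 3744.5 at the mature position.

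Other miRNAs with similar patterns were ranked by Pearson correlation over the 12 arrays among 120 mature probes of other families, as a description with no test, since all probes share the arrays. Nearest to miR171e was miR156f/g/i (r = 0.91), a regulator of SPL factors, which was also nearest to miR171h (0.79), and miR169v came next for both. Nearest to miR171c were miR164a/c/d (0.83), a regulator of NAC factors, and miR394 (0.82), a regulator of an F-box gene. Nearest to miR171f were miR169v (0.88) and miR169y (0.84), regulators of NF-YA factors, and the same probes led for miR171g. Nearest to miR171b were 2 probes of miR399a/h (0.88 and 0.87), known from phosphate homeostasis.

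Among 7 other families that regulate developmental transcription factors or growth-regulating factors, miR156, miR159, miR164, miR166, miR172, miR319 and miR396, 4 of 38 distinct probes passed over the 6 tissues, 3 over the organs and 0 over the berry stages. The median range of their tissue means was 1.87 on the log2 scale. The probe with the widest range was miR156f/g/i in its family (2.82, highest in young inflorescences and lowest in leaves, adjusted p = 0.00578 over the organs), miR319g (2.07, with the same highest and lowest tissues, 0.0155) and miR164a/c/d (2.63, highest in young inflorescences and lowest in mature berries, 0.119 over the organs and 0.0121 over the 6 tissues). In the remaining 4 families these were miR159c (1.42), a miR166c probe (2.27), miR172c (3.85) and miR396b (3.13), with adjusted p over the organs between 0.321 and 0.587.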

How the data were processed

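The authors deposited, for each of the 12 arrays, the median and SD of the fluorescence intensity of the 3 replicate spots of each probe, on a linear scale before normalization, and a table of intensity values that they had quantile-normalized over all probes. Arrays were scanned with a Perkin Elmer ScanArray; any background subtraction was not given in the sources used here.

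Members were matched by sequence to the study's list of mature miRNAs. miR171g met the rule beside the 5 members first listed and was kept. Members and lists were chosen with earlier results of these data known. All members were named, with the 2 most correlated probes of other families and, for each of 7 families, the probe with the widest range.

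Medians (values under 1 set to 1) were quantile-normalized over 1947 probes and put on the log2 scale. limma 3.58.1 in R 4.3.3 (lmFit, eBayes, 6 groups of 2 arrays) gave moderated F tests, adjusted by Benjamini-Hochberg over 138 probes. A pair of tissues was called where the F test and the pair's own test had an adjusted p under 0.05. A fold bound replaces the dim tissue, array by array, with the lowest signal above background or its own value if that is larger. Pairs of members were tested by exact permutation in Python 3.11.15, where F has no direction. Scripts were tested on simulated data. Alternatives covered normalization, filters, arrays, probes and background. The 20-base probes and the mismatch fit were added later, with these values seen. The number of arrays and signal over background limit the precision.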

Additional observations from a re-analysis of the deposited data

How the results depend on the processing

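Of the 6 members, those past the test over 6 tissues (5) numbered 1 with scaling to the 75th percentile, 2 with scaling on the positive controls, 0 with log2 of perfect match over mismatch, 2 with only probes present in a tissue (2 members tested), 0 with the methods' one-way test, 3 with the 20-base probes, and 1 to 5 without single arrays. Over the organs (5) they numbered 2 with scaling to the 75th percentile, 1 with the ratio to the mismatch, 2 with the presence filter, 3 with the 6 arrays alone, 3 with the one-way test, 3 with the 20-base probes, and 2 to 5 without single arrays. Over the berry stages (0) they numbered 1 with the 6 berry arrays alone and 0 without any single array. With the replicate number as a block, 3 members passed over 6 tissues, 5 over the organs and 0 over the berry stages. Whether same-numbered arrays share a batch was not tested. Their deviations correlated between tissues with r from -0.61 to 0.47, and r was over 0.1 in 5 of 15 pairs of tissues. Before normalization the median miRNA probe was brighter on replicate 1 than on replicate 2 in every tissue. Pairs of members with different profiles (5) numbered 2 with scaling to the 75th percentile, 0 on the positive controls, 2 with no normalization, 0 with the ratio to the mismatch, 0 with the 20-base probes, and 2 to 4 without single arrays. Presence calls (3) numbered 1 at mean plus 3 SD, 12 without the brightest control, 10 where 1 array sufficed, and 3 to 6 without single arrays. The 7 called tissue differences kept their sign in all settings run. The causes were not tested. The share of all mature probes called in each alternative is not given here, so these counts do not single out miR171. Most members lie below background on most arrays, which limits every level given here.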
